A study of Homo sapiens with 12 samples.

Results

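Potassium channel genes were taken as the rows of the gene table whose name starts with KCN, without hyphenated names, names ending in OT1 or IT1, and pseudogenes. Of 58174 genes in the table, 122 had a name starting with KCN, and 101 of these were kept after 19 hyphenated names, 1 name ending in OT1 and 1 pseudogene were dropped. The annotation lists 96 of the 101 as protein-coding. The other 5 are noncoding entries at the KCNQ1 locus (KCNQ1DN and KCNQ1OT1_1, KCNQ1OT1_2, KCNQ1OT1_3 and KCNQ1OT1_5), which the naming rule kept. A count high enough for testing was found for 57 of the 101 genes.

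RNA was sequenced from H520, an established human cell line of lung squamous cell carcinoma. Of 12 libraries, 3 came from control cells, 3 from cells given BLU9931 at 1 µM, 3 from cells given palbociclib at 1 µM and 3 from cells given both drugs at 1 µM each (the combination), all drug treatments lasting 72 h. BLU9931 blocks the growth factor receptor FGFR4, and palbociclib blocks the cell cycle kinases CDK4 and CDK6. All groups are this 1 line with no engineered allele named; what was given to control cells is not in the labels, and neither is whether the 3 libraries of a group were separate cultures, so p-values measure only the spread between these libraries, which may be technical. The libraries held 21730722 to 35786607 counts. Control 1 and palbociclib 3 stood apart from the other 10 libraries on the second principal component (scores of 67.4 and 71.6, against -32.6 to 5.38). They also stood apart in how gene levels, as deviations from the group mean, followed GC content. Spearman correlations across genes were -0.667 and -0.735, against -0.245 to 0.6 in the other 10. With levels centred by group, a trend in 1 library pushes its replicates the opposite way. Because control 1 and palbociclib 3 stood apart, results are also given with both left out where a call depends on them. Of the defining squamous markers, SOX2 was at 342 to 443 TPM, while TP63, KRT14, DSG3 and PKP1 had at most 6 counts in any library and KRT5 and KRT6A at most 1.31 TPM, so most squamous markers were absent or near absent in cells labelled as squamous carcinoma.

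Potassium channels are membrane proteins that let potassium ions leave or enter the cell along their gradient and so set the resting membrane potential. Voltage-gated families (KCNA, KCNB, KCNC, KCND, KCNH, KCNQ) open on depolarisation, inward rectifiers (KCNJ) pass current more easily into the cell, 2-pore channels (KCNK) carry background leak currents, and calcium-activated channels (KCNM, KCNN) open when intracellular calcium rises. Auxiliary subunits (KCNAB, KCNE, KCNIP, KCNMB) bind the pore proteins and alter their gating or trafficking, and silent subunits (KCNF, KCNG, KCNS, KCNV) work only when joined with KCNB-type pores. In epithelial and tumour cells, these channels are studied for their part in cell volume, calcium entry and proliferation.

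The stretches around the RefSeq start site are shown for 3 genes that carry the main rises and falls below: KCNJ6 and KCNN4, which rose with palbociclib, and KCNK2, which fell. Each runs from 250 bases before to 50 bases after the start, 5′ to 3′ on the gene's strand, with GC boxes (GGGCGG, either strand) and CHR elements (TTTGAA, either strand) in capitals.
KCNJ6 (GRCh38.p14, chr21:37916408-37916707, minus strand): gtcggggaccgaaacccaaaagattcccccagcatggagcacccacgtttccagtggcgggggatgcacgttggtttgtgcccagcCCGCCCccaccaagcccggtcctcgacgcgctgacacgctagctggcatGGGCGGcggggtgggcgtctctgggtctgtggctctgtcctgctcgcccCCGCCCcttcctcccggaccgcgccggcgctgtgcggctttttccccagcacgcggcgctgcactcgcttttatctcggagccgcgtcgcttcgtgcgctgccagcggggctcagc
KCNN4 (GRCh38.p14, chr19:43780924-43781223, minus strand): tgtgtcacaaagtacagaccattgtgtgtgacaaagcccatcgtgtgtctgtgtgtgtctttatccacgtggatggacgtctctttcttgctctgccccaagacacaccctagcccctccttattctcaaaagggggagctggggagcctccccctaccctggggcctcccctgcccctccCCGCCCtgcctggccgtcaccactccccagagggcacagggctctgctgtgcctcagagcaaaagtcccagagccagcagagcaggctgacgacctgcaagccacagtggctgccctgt
KCNK2 (GRCh38.p14, chr1:215005292-215005591, plus strand): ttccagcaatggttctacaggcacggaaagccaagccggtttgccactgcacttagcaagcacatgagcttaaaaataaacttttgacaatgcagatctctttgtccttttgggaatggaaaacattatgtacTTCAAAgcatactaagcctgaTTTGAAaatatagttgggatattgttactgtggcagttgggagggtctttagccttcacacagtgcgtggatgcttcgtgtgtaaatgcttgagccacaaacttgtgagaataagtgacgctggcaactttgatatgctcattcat
The KCNJ6 stretch holds 3 GC boxes and the KCNN4 stretch 1, while the KCNK2 stretch holds no GC box and 2 CHR elements. RefSeq stretches were matched for 72 of the 101 genes, 41 of them among the 57 tested. A GC box was in 25 of these 41 (61%) and in 45% of all 35116 stretches of that length. Median GC content was 65% over the 41 and 58.7% over all stretches. Among members called in the combination, 8 of 10 that rose and 6 of 11 that fell held a GC box, with median GC contents of 71.5% and 65.7%. A CHR element was in 4 of 41 (15.2% of all), with 1 of 10 that rose and 1 of 11 that fell, KCNK2. Of the 41, the E2F-like letters TTTCCCGC were in 1, KCNQ5 (1.63% of all), and TTTGGCGC in 1, KCNIP2 (0.652% of all). These letter matches describe the windows only.

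H520 cells expressed few potassium channel genes at a high level. On the TPM scale, which corrects for length and so allows genes to be set side by side, 9 tested genes had a mean of at least 10 TPM over the 12 libraries, 32 had at least 1 TPM and 25 were under 1 TPM. The 10 most abundant held 75.5% to 87.6% of the summed TPM of all 101. That sum was 347 to 375 TPM in the control libraries, 412 to 480 with BLU9931, 468 to 480 with palbociclib and 456 to 483 with the combination. Every treated library thus lay above every control library. Since 10 genes carried most of the sum, it does not describe the members in general. Fewer cells of a type and less RNA per cell cannot be told apart in bulk libraries such as these.

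KCNE3, an auxiliary subunit that keeps KCNQ1 channels open in epithelia, ranked first and held 101, 83.5 and 86.6 TPM in control libraries 1 to 3, 118, 101 and 109 with BLU9931, 108, 116 and 125 with palbociclib and 127, 129 and 131 with the combination. KCNJ10, an inward rectifier best known from glia and kidney, ranked second and held 45, 27.6 and 30.4 TPM in control libraries 1 to 3, 85.3, 47.2 and 65.4 with BLU9931, 84.2, 68.8 and 83.6 with palbociclib and 65.1, 82.5 and 78.9 with the combination. KCNMA1, the pore of the large-conductance calcium-activated BK channel, came next and held 41.4, 51.9 and 47.1 TPM in control libraries 1 to 3, 62, 55.1 and 69.3 with BLU9931, 43.1, 56.5 and 46.7 with palbociclib and 60.1, 62.5 and 68.6 with the combination. KCNE3 was above both others in every library, and KCNJ10 was above KCNMA1 in all palbociclib and combination libraries but, of the other 6, only in control 1 and BLU9931 1.
The next ranks were taken by KCNH8 with a mean of 34.4 TPM (25.2 to 48.7), KCNQ5 with 28.7 (18.8 to 39.4), KCNAB2 with 20.5 (11.4 to 26.1) and KCNS3 with 19.8 (6.84 to 33.8). KCND2 with 11.4 TPM (4.94 to 17), KCNH2 with 10.6 (3.61 to 17.1) and KCND1 with 8.28 (3.6 to 13.3) closed the first 10. Neighbours in this order from KCNH8 downward overlapped in their ranges. KCNQ1, the partner pore of KCNE3, was at most 0.87 TPM in any library.

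**Figure D1:**
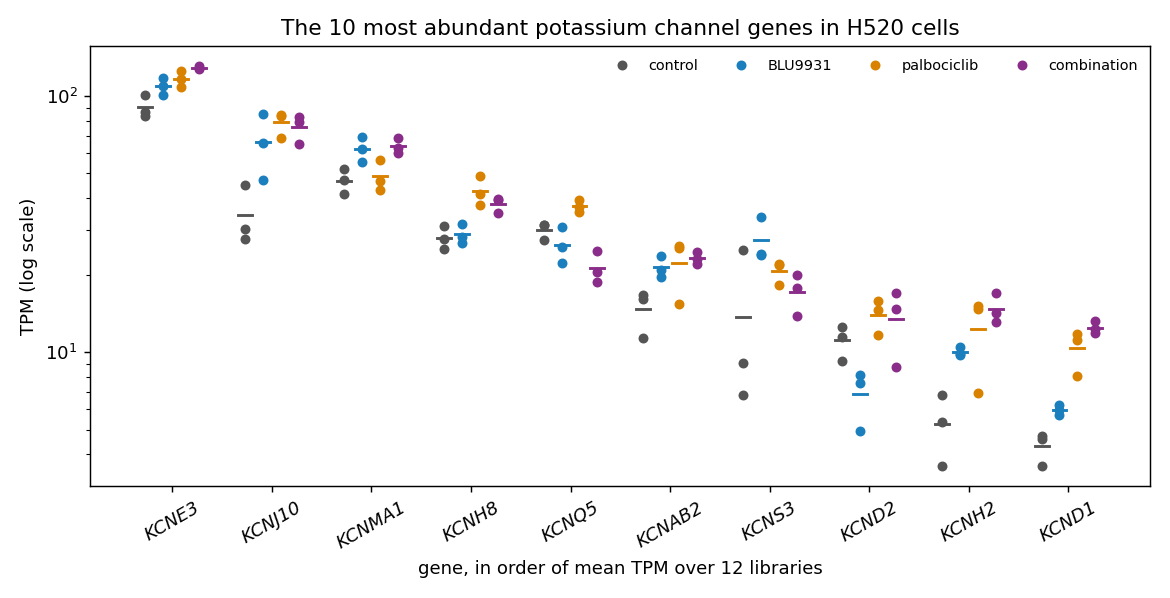
TPM (log axis) of the 10 most abundant potassium channel genes in each of the 12 libraries, with points for libraries, coloured by group, and short lines for group means. KCNE3 leads at 83.5 to 131 TPM, and 1 control library of KCNS3 (25.1 TPM) sits far above the other 2 (6.84 and 9.11 TPM).

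The 44 genes that were not tested had at most 16 counts in any library and at most 0.453 TPM (KCNK7), and 11 of them were at 0 in all 12 libraries. They made up 10 of 15 2-pore channels, 7 of 16 voltage-gated pore genes, 5 of 16 inward rectifiers, 5 of 10 silent subunits, 4 of 8 KCNH genes, 4 of 17 auxiliary subunits, 3 of 8 calcium- or sodium-activated channels and 5 of 6 genes outside these families, with KCNQ genes not counted here.

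The first question was whether either drug alone, or both together, changed the expression of potassium channel genes. Below, levels of a gene across libraries are CPM (counts scaled to library size, with TMM factors), and changes are log2 values ± a standard error (n = 3 libraries a group). That error was derived from the edgeR F-test, as the log2 change before edgeR's shrinkage divided by the square root of F. The fit shares its estimate of the spread over all libraries. A gene was called when edgeR's Benjamini-Hochberg adjusted p over all 20612 tested genes was under 0.05. All 3 comparisons with control share the same 3 control libraries.

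With BLU9931 alone, 0 of 57 genes were called by edgeR (0.180% of all tested genes were called, 0.141% as rises and 0.0388% as falls). An unadjusted p under 0.05 was reached by 13 of the 57 (16.2% of all genes), and DESeq2 called 5 (2.86% of all genes), among them KCNK2, KCNMA1, KCNAB3 and KCNJ10. EdgeR called 2 with control 1 and palbociclib 3 both left out (2.62% of all genes), 3 with a GC adjustment (3.57%) and 1 without control 1 (0.0565%).

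With palbociclib alone, 17 were called, against 20.6% of all genes. Without palbociclib 1 or palbociclib 2, 11 were called each time (14.6% and 14.0% of all genes). Of the 17, 9 rose (10% of all genes rose) and 8 fell (10.5% of all genes fell). In 13 of the 17 the change was at least 2-fold, but the matching share of all called genes was not counted. The median log2 change over the 57 was -0.13, against 0.01 over all tested genes.

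With the combination, 27 of 57 were called (31.7% of all genes). Of these, 12 rose (15.4% of all genes rose) and 15 fell (16.3% of all genes fell). At least 2-fold changes were seen in 17, again without a matching share of all called genes. The median over the 57 was -0.19, against 0.03 over all genes. Across both comparisons 15 genes were called in each, in the same direction, 2 with palbociclib only (KCNH1 and KCNJ9) and 12 with the combination only. Of these 14, KCNMA1, KCNQ5 and KCNJ5 also passed in the direct comparison of the combination with palbociclib, and the other 11 did not. With control 1 and palbociclib 3 both left out, 21 genes were called with palbociclib and 28 with the combination, against 28.6% and 38.8% of all genes. In total 32 of the 57 were called in at least 1 of 6 comparisons and 25 in none. The matching share of all genes was not counted, so these numbers only account for the members. All but 2 of the 57 reached the count minimum of the filter in libraries of more than 1 group. The exceptions were KCNJ16, which reached it in the combination libraries alone, and KCNJ4, which reached it in the BLU9931 libraries alone. KCNA10 reached it in 2 combination libraries and 1 palbociclib library, so it too was tested only because of the combination libraries. Calls of KCNJ16 and KCNA10 that involve the combination, and of KCNJ4 that involve BLU9931, are included in the counts. The filter itself selected on those differences.

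By family, the calls are counts of few genes, to be read against all genes (15.4% rose and 16.3% fell with the combination, 10% and 10.5% with palbociclib). With the combination 3 of 5 tested 2-pore genes fell and 2 of 5 silent subunits fell. The calcium- or sodium-activated family gave 2 rises of 5 tested, the KCNH family 2 rises of 4, the inward rectifiers 3 rises and 1 fall of 11, the voltage-gated pores 3 rises and 2 falls of 9 and the auxiliary subunits 2 rises and 3 falls of 13. With palbociclib alone 3 of 5 2-pore genes fell, 4 of 11 inward rectifiers rose and 2 of 9 voltage-gated pores rose. The KCNH family gave 2 rises and 1 fall of 4, the calcium- or sodium-activated family 1 rise of 5, the auxiliary subunits 1 fall of 13 and the silent subunits 0 calls of 5. The difference between families was not tested.

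**Figure D2:**
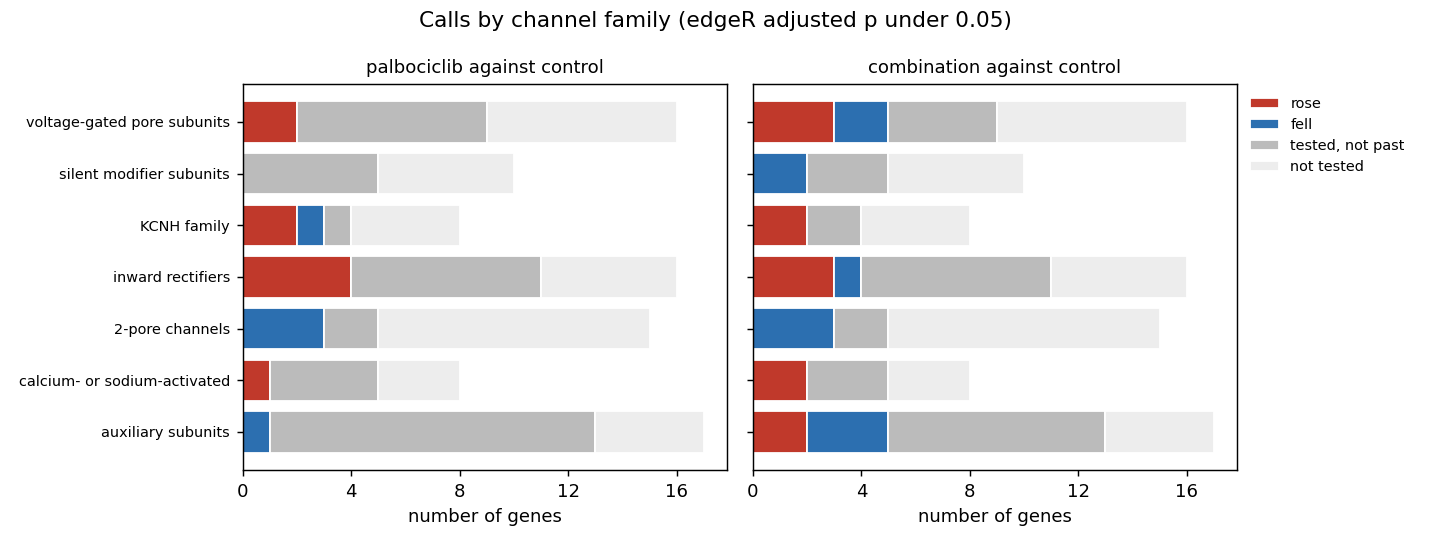
Number of genes in each channel family that rose, fell, were tested without passing, or were not tested, with palbociclib (left) and the combination (right) against control. The 2-pore bars hold falls and no rises in both panels, and the KCNQ genes and the 6 entries outside these families are not drawn.

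KCNQ channels carry the slow M-type and cardiac repolarising currents. KCNQ1 and KCNQ3 fell with palbociclib and with the combination, and KCNQ5 fell with the combination. KCNQ3 (ENSG00000184156, chromosome 8, 132120858 to 132481019, GRCh38 as for all positions), a pore subunit of the neuronal M current, held 52.2, 37.9 and 37.8 CPM in control libraries 1 to 3, 47.3, 47 and 44.2 with BLU9931, 6.27, 15.2 and 6.02 with palbociclib and 12.1, 11 and 4.48 with the combination. All 6 palbociclib and combination libraries lay below all 6 control and BLU9931 libraries, and the palbociclib and combination groups overlapped. KCNQ3 had a log2 change of -2.22 ± 0.40 with palbociclib (adjusted p = 0.00256), -2.21 ± 0.40 with the combination (adjusted p = 0.00146) and -2.33 ± 0.40 for the combination against BLU9931 (adjusted p = 0.0013). Its count followed its TPM unevenly, with a CPM to TPM ratio that varied 2.73-fold between libraries, and limma on TPM gave smaller log2 changes on the log2(TPM + 1) scale, -1.13 with palbociclib and -1.42 with the combination (adjusted p of 0.000646 and 5.43e-05).

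KCNQ1 (ENSG00000053918, chromosome 11, 2444684 to 2849109), which pairs with KCNE subunits in heart and epithelia, held 0.67, 1.52 and 1.3 CPM in control libraries 1 to 3, 1.53, 1.39 and 1.04 with BLU9931, 0.402, 0.472 and 0.323 with palbociclib and 0.363, 0.142 and 0.622 with the combination. All palbociclib and combination values were below the lowest control value. KCNQ1 had a log2 change of -1.54 ± 0.45 with palbociclib (adjusted p = 0.0312), -1.61 ± 0.45 with the combination (adjusted p = 0.0173) and -1.79 ± 0.45 for the combination against BLU9931 (adjusted p = 0.0122). The call with palbociclib ended without control 2 or 3 or palbociclib 1, 2 or 3 (edgeR adjusted p 0.0622 to 0.101) and with limma on TPM and limma on FPKM (adjusted p 0.134 to 0.141), and with the combination without control 2 or 3 or combination 1 or 2 (edgeR adjusted p 0.0503 to 0.0633). KCNQ1 shares 2.72% of its exon bases with the opposite-strand transcript KCNQ1OT1, which had a mean of 843 counts against 23, and whether strand was used in counting is not given.

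KCNQ5 (ENSG00000185760, chromosome 6, 72621792 to 73198851), an M-current subunit and the most abundant KCNQ gene here, held 36.3, 39.8 and 36.6 CPM in control libraries 1 to 3, 31.5, 31.2 and 33.8 with BLU9931, 37.3, 42.1 and 41.4 with palbociclib and 24.8, 28.9 and 26.4 with the combination. The combination libraries were the lowest 3 of the 12, BLU9931 lay between them and control, and palbociclib overlapped control. KCNQ5 had a log2 change of 0.10 ± 0.11 with palbociclib (adjusted p = 0.561), -0.49 ± 0.11 with the combination (adjusted p = 0.00488) and -0.59 ± 0.11 for the combination against palbociclib (adjusted p = 0.00969). The call against palbociclib ended without combination 1 (edgeR adjusted p 0.0596).

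Among the voltage-gated pore genes, KCND1 rose with the combination, and KCNA2 and KCNC1 fell. KCNA10 was also higher there, but it was tested only because of the combination libraries. KCND1 (ENSG00000102057, chromosome X, 48961378 to 48971569), a Kv4 channel of the fast A-type current, held 7.52, 11.2 and 11.3 CPM in control libraries 1 to 3, 14.3, 14.5 and 12.5 with BLU9931, 27.4, 22.7 and 16.1 with palbociclib and 27.2, 28.2 and 26.9 with the combination. Every treated library was above every control library, with BLU9931 in between. KCND1 had a log2 change of 0.45 ± 0.20 with BLU9931 (adjusted p = 0.301), 1.14 ± 0.20 with palbociclib (adjusted p = 0.00249), 1.45 ± 0.21 with the combination (adjusted p = 0.000281) and 1.00 ± 0.20 for the combination against BLU9931 (adjusted p = 0.00367).

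KCNA2 (ENSG00000177301, chromosome 1, 110519837 to 110631474), a Kv1 delayed rectifier of axons, held 21.7, 26.5 and 25.4 CPM in control libraries 1 to 3, 28.3, 26.3 and 24.4 with BLU9931, 11, 10.9 and 12.5 with palbociclib and 10.3, 8.53 and 1.24 with the combination. Palbociclib and combination libraries lay below the others, and combination 3 lay far below its 2 replicates. KCNA2 had a log2 change of -1.10 ± 0.49 with palbociclib (adjusted p = 0.138), -1.88 ± 0.50 with the combination (adjusted p = 0.0139) and -1.98 ± 0.50 for the combination against BLU9931 (adjusted p = 0.0125). Its CPM to TPM ratio varied 8.53-fold, the widest among the 52 genes with at least 10 counts in 6 or more libraries. In TPM, KCNA2 held 3.61, 6.51 and 6.61 TPM in control libraries 1 to 3, 7.27, 5.05 and 6.57 with BLU9931, 2.74, 3.06 and 3.61 with palbociclib and 2.87, 2.56 and 1.77 with the combination. On that scale combination 3 was nearer to its replicates, and limma gave -0.93 with the combination (adjusted p = 0.00822) and -0.64 with palbociclib (adjusted p = 0.0676). The combination call ended with both control 1 and palbociclib 3 left out (adjusted p 0.0506).

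KCNC1, a Kv3 channel, held 0.819, 1.07 and 1.16 CPM in control libraries 1 to 3, 0.17, 0.781 and 0.696 with BLU9931, 0.704, 0.511 and 0.606 with palbociclib and 0.227, 0.0355 and 0.229 with the combination. Combination libraries were below all control and palbociclib libraries, and BLU9931 1 lay within their range. KCNC1 had a log2 change of -0.74 ± 0.49 with palbociclib (adjusted p = 0.32), -2.63 ± 0.58 with the combination (adjusted p = 0.00466) and -1.76 ± 0.61 for the combination against BLU9931 (adjusted p = 0.0493). The call against BLU9931 ended without control 1, 2 or 3, BLU9931 2 or 3, palbociclib 1 or 2 or combination 1, 2 or 3 (edgeR adjusted p 0.0504 to 0.168) and with scaling by library totals, no filter on low counts, limma on TPM and limma on FPKM (adjusted p 0.0527 to 0.16). KCNA10, another Kv1 channel, held 0.0745, 0.0692 and 0.113 CPM in control libraries 1 to 3, 0, 0.0679 and 0 with BLU9931, 0.0671, 0.354 and 0.0808 with palbociclib and 0.997, 0.533 and 0.327 with the combination. It was lowest in BLU9931, with 2 counts over 3 libraries, and highest in the combination, with 47. KCNA10 had a log2 change of 0.88 ± 0.89 with palbociclib (adjusted p = 0.524), 2.74 ± 0.76 with the combination and 4.37 ± 0.98 for the combination against BLU9931. It reached the count minimum of the filter in 2 combination libraries and 1 palbociclib library, and in no control or BLU9931 library. Without the combination libraries KCNA10 would not have been tested, so no p is given for the combination. The combination call against control ended without control 1 or 2 or combination 1. KCNA10 and KCNA2 lie 662 bases apart on chromosome 1. Their directions are not compared, because the filter selected KCNA10 on the combination libraries.

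For KCND2 and KCNC4 the replicates of a group lay far apart. KCND2, a Kv4 channel, held 33.6, 25 and 28.7 CPM in control libraries 1 to 3, 21.6, 20.5 and 9.24 with BLU9931, 27.4, 31.8 and 42.7 with palbociclib and 41.1, 12.1 and 38.9 with the combination. BLU9931 3 and combination 2 lay far below their replicates. KCNC4, another Kv3 channel, held 2.79, 21.2 and 24.1 CPM in control libraries 1 to 3, 25.3, 22.9 and 4.75 with BLU9931, 11.8, 2.87 and 1.66 with palbociclib and 1.45, 5.83 and 6.61 with the combination. Values in a group differed up to several-fold, and its CPM to TPM ratio varied 6.27-fold. KCND2 had a log2 change of 0.22 ± 0.41 with palbociclib (adjusted p = 0.757) and 0.08 ± 0.41 with the combination (adjusted p = 0.91), and KCNC4 one of -1.55 ± 0.91 with palbociclib (adjusted p = 0.261) and -1.78 ± 0.92 with the combination (adjusted p = 0.165). KCNB2 stayed between 0.503 and 1.3 CPM and passed in no comparison.

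In the KCNH family, KCNH2 and KCNH8 rose with both palbociclib and the combination, and KCNH1 fell with palbociclib. KCNH2 (ENSG00000055118, chromosome 7, 150944961 to 150978315), the hERG channel of cardiac repolarisation, held 8.04, 12.2 and 13.7 CPM in control libraries 1 to 3, 18.6, 18.3 and 17.3 with BLU9931, 30.4, 29.7 and 12 with palbociclib and 27.6, 29.6 and 36.1 with the combination. All BLU9931 and combination libraries were above control, whereas palbociclib 3, 1 of the 2 libraries that stood apart, lay inside the control range. KCNH2 had a log2 change of 0.68 ± 0.31 with BLU9931 (adjusted p = 0.305), 1.09 ± 0.31 with palbociclib (adjusted p = 0.0276) and 1.46 ± 0.31 with the combination (adjusted p = 0.00396). The palbociclib call ended without control 1 or 2 or palbociclib 1 or 2 (edgeR adjusted p 0.0681 to 0.115). KCNH8 (ENSG00000183960, chromosome 3, 19148454 to 19535646), an Elk-type channel, held 87.6, 70.7 and 75.6 CPM in control libraries 1 to 3, 73.7, 87.4 and 76.2 with BLU9931, 113, 98 and 132 with palbociclib and 107, 104 and 95.3 with the combination. Palbociclib and combination libraries lay above all control and BLU9931 libraries. KCNH8 had a log2 change of 0.55 ± 0.13 with palbociclib (adjusted p = 0.0123) and 0.39 ± 0.13 with the combination (adjusted p = 0.0422). Its combination call ended without control 2 or 3, BLU9931 1 or 3 or combination 1, 2 or 3 (edgeR adjusted p 0.0543 to 0.128) and with no filter on low counts (adjusted p 0.0785). KCNH1, an Eag channel studied in tumours, held 1.6, 1 and 2.38 CPM in control libraries 1 to 3, 1.32, 1.36 and 2.28 with BLU9931, 0, 0.551 and 0.242 with palbociclib and 0.952, 0.818 and 1.34 with the combination. The palbociclib libraries were the lowest, and combination overlapped control. KCNH1 had a log2 change of -2.68 ± 0.69 with palbociclib (adjusted p = 0.0166) and -0.68 ± 0.58 with the combination (adjusted p = 0.407). Its palbociclib call ended without control 3 (edgeR adjusted p 0.058) and with limma on FPKM and both control 1 and palbociclib 3 left out (adjusted p 0.0501 to 0.0584). KCNH1 shares 36.9% of its exon bases with an opposite-strand gene, AC096636.1, and its CPM to TPM ratio varied 4.51-fold.

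Of 5 tested silent subunits, KCNG3 and KCNV1 fell with the combination, and 0 were called with palbociclib. KCNG3, a modifier subunit that forms no channel alone, held 1.64, 2.42 and 1.67 CPM in control libraries 1 to 3, 1.74, 2.24 and 2.13 with BLU9931, 1.01, 1.22 and 1.25 with palbociclib and 0.906, 0.96 and 0.294 with the combination. Combination libraries lay lowest, and palbociclib libraries lay between them and control. KCNG3 had a log2 change of -0.72 ± 0.34 with palbociclib (adjusted p = 0.164), -1.42 ± 0.36 with the combination (adjusted p = 0.0102) and -1.52 ± 0.36 for the combination against BLU9931 (adjusted p = 0.00855). KCNV1, another modifier, held 11.9, 9.07 and 9.37 CPM in control libraries 1 to 3, 11.2, 10.8 and 9.78 with BLU9931, 7.04, 6.65 and 8.89 with palbociclib and 7.34, 7.11 and 7.66 with the combination. Palbociclib and combination libraries lay below all control and BLU9931 libraries. KCNV1 had a log2 change of -0.43 ± 0.16 with palbociclib (adjusted p = 0.0763), -0.46 ± 0.16 with the combination (adjusted p = 0.044) and -0.52 ± 0.16 for the combination against BLU9931 (adjusted p = 0.0289). The call against control ended without control 1, BLU9931 1 or 3 or combination 1, 2 or 3 (edgeR adjusted p 0.0519 to 0.124) and with scaling by library totals, no filter on low counts, limma on TPM and limma on FPKM (adjusted p 0.0662 to 0.17), and against BLU9931 without BLU9931 1 or 2 or combination 1 or 2 (edgeR adjusted p 0.0596 to 0.0785). With limma on TPM the sign of the change against BLU9931 turned, to 0.10.

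KCNG1, a modifier of the same family as KCNG3, held 1.04, 1.45 and 2.21 CPM in control libraries 1 to 3, 2.8, 2.68 and 2.32 with BLU9931, 1.64, 1.49 and 0.687 with palbociclib and 1.04, 0.889 and 0.785 with the combination. BLU9931 libraries were the highest, and the combination libraries were below all of them. KCNG1 had a log2 change of -0.81 ± 0.35 with the combination (adjusted p = 0.0968) and -1.52 ± 0.34 for the combination against BLU9931 (adjusted p = 0.00646). KCNS3 (ENSG00000170745, chromosome 2, 17877847 to 18361616), the most abundant silent subunit, held 31.9, 7.47 and 8.64 CPM in control libraries 1 to 3, 41.3, 30.3 and 30 with BLU9931, 22.5, 25.6 and 27.7 with palbociclib and 21.9, 16.1 and 24.5 with the combination. Control 1 was near the treated libraries, while control 2 and control 3 lay below all 9 of them. KCNS3 had a log2 change of 1.09 ± 0.45 with BLU9931 (adjusted p = 0.28), 0.66 ± 0.44 with palbociclib (adjusted p = 0.332) and 0.39 ± 0.44 with the combination (adjusted p = 0.547) and was called in no comparison. Without control 1 its log2 change was 2.07 with BLU9931 (edgeR adjusted p = 0.0079), 1.65 with palbociclib (adjusted p = 0.000738) and 1.35 with the combination (adjusted p = 0.00108). Control 1 is 1 of the 2 libraries that stood apart in their GC trend, and the part of that trend in the KCNS3 result was not tested.

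Of the inward rectifiers, KCNJ6 and KCNJ10 rose with both palbociclib and the combination, KCNJ9 and KCNJ16 with palbociclib, and KCNJ5 fell with the combination. KCNJ16 was also higher with the combination, but it passed the count filter only through those libraries. KCNJ6 (ENSG00000157542, chromosome 21, 37607376 to 37916446), a G-protein-gated channel (GIRK2) best known from neurons, held 1.38, 1.18 and 2.01 CPM in control libraries 1 to 3, 1.36, 1.87 and 2.24 with BLU9931, 6.24, 5.86 and 7.68 with palbociclib and 8.16, 9.1 and 7.62 with the combination. All 6 palbociclib and combination libraries were well above all control and BLU9931 libraries. KCNJ6 had a log2 change of 0.25 ± 0.24 with BLU9931 (adjusted p = 0.596), 2.10 ± 0.24 with palbociclib (adjusted p = 0.000142), 2.43 ± 0.24 with the combination (adjusted p = 1.78e-05) and 2.18 ± 0.24 for the combination against BLU9931 (adjusted p = 4.52e-05). Its calls held under every alternative, with any 1 library left out too. In TPM, KCNJ6 stayed under 1 in every library, at 0.106 to 0.884.

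KCNJ10 (ENSG00000177807, chromosome 1, 159998651 to 160070483) held 43.1, 29.2 and 30.1 CPM in control libraries 1 to 3, 104, 47.2 and 77.1 with BLU9931, 76.3, 62.4 and 75.1 with palbociclib and 59.5, 74.3 and 68.6 with the combination. Every treated library was above every control library, and BLU9931 libraries were the most widely spread. KCNJ10 had a log2 change of 1.16 ± 0.25 with BLU9931 (adjusted p = 0.0949), 1.06 ± 0.25 with palbociclib (adjusted p = 0.0117) and 0.98 ± 0.25 with the combination (adjusted p = 0.0112). KCNJ9, another G-protein-gated channel (GIRK3), lies 11.1 kb from KCNJ10 on chromosome 1 and held 2.9, 3.88 and 4.28 CPM in control libraries 1 to 3, 3.82, 4.34 and 3.59 with BLU9931, 7.18, 6.81 and 4.85 with palbociclib and 4.49, 4.05 and 4.61 with the combination. Its palbociclib libraries lay above all others, and the combination overlapped control. KCNJ9 had a log2 change of 0.77 ± 0.19 with palbociclib (adjusted p = 0.0164) and 0.25 ± 0.19 with the combination (adjusted p = 0.365). Its call ended without control 1 or palbociclib 1 or 2 (edgeR adjusted p 0.0523 to 0.0789).

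KCNJ16 (ENSG00000153822, chromosome 17, 70053429 to 70135608), a partner of KCNJ10 in kidney channels, held 0, 0 and 0 counts in control libraries 1 to 3, 0, 0 and 0 with BLU9931, 5, 7 and 4 with palbociclib and 20, 12 and 13 with the combination. It was at 0 in all 6 control and BLU9931 libraries and was counted in all 6 others. Against a floor of 3 counts over a group, KCNJ16 was at least 6.07-fold higher with palbociclib (edgeR adjusted p = 0.0137) and at least 16.9-fold higher with the combination than in control, and in the combination at least 14.7-fold higher than with BLU9931. KCNJ16 passed the count filter only through the 3 combination libraries, so no p is given for the combination. The palbociclib call ended with limma on TPM and limma on FPKM (adjusted p 0.395 to 0.476). KCNJ5 (ENSG00000120457, chromosome 11, 128891356 to 128921035), a G-protein-gated channel (GIRK4) of heart and adrenal gland, held 1.79, 2.46 and 2.58 CPM in control libraries 1 to 3, 2.04, 3.09 and 3.52 with BLU9931, 1.98, 2.4 and 1.62 with palbociclib and 0.997, 0.533 and 0.916 with the combination. The combination libraries were the lowest 3 of the 12, and the other groups overlapped. KCNJ5 had a log2 change of -0.19 ± 0.28 with palbociclib (adjusted p = 0.686), -1.49 ± 0.30 with the combination (adjusted p = 0.00288), -1.30 ± 0.30 for the combination against palbociclib (adjusted p = 0.036) and -1.83 ± 0.30 for the combination against BLU9931 (adjusted p = 0.000924). The call against palbociclib ended without control 2 or 3, BLU9931 2, palbociclib 1 or 2 or combination 1, 2 or 3 (edgeR adjusted p 0.0565 to 0.148) and with limma on TPM and limma on FPKM (adjusted p 0.128 to 0.155).

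KCNJ4, a strong inward rectifier, held 2, 8 and 4 counts in control libraries 1 to 3, 11, 12 and 10 with BLU9931, 2, 2 and 0 with palbociclib and 0, 0 and 4 with the combination. BLU9931 libraries were the highest, and the other groups had few counts. KCNJ4 had a log2 change of -1.58 ± 1.03 with the combination (adjusted p = 0.248). KCNJ4 passed the count filter only through the 3 BLU9931 libraries, so no p is given against BLU9931. KCNJ11, the pore of the ATP-sensitive channel, held 5.03, 10.5 and 9.6 CPM in control libraries 1 to 3, 12.3, 2.95 and 9.47 with BLU9931, 7.38, 7.91 and 3.19 with palbociclib and 5.21, 6.33 and 6.77 with the combination. Replicates differed widely and the groups overlapped. KCNJ11 had a log2 change of -0.44 ± 0.47 with palbociclib (adjusted p = 0.562) and -0.45 ± 0.47 with the combination (adjusted p = 0.5). KCNJ12 has the near-identical copy KCNJ18, and KCNE1 the copy KCNE1B, so the counts of these 4 genes are uncertain; neither KCNJ12 nor KCNE1 was called.

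Of 5 tested 2-pore channels, KCNK1, KCNK2 and KCNK5 fell and KCNK6 and KCNK12 passed in no comparison. KCNK2 (ENSG00000082482, chromosome 1, 215005775 to 215237093), the stretch- and lipid-sensitive TREK channel, held 3.02, 2.94 and 2.04 CPM in control libraries 1 to 3, 1.44, 1.09 and 1.16 with BLU9931, 0.637, 0.747 and 0.808 with palbociclib and 0.272, 0.853 and 0.458 with the combination. All 9 treated libraries lay below the controls, with BLU9931 between control and the others. KCNK2 had a log2 change of -1.11 ± 0.31 with BLU9931 (adjusted p = 0.167), -1.86 ± 0.33 with palbociclib (adjusted p = 0.00224), -2.30 ± 0.34 with the combination (adjusted p = 0.000369) and -1.19 ± 0.35 for the combination against BLU9931 (adjusted p = 0.0253). The call against BLU9931 ended without BLU9931 1 or combination 1 or 3 (edgeR adjusted p 0.0699 to 0.0776). Its CPM to TPM ratio varied 2.57-fold, and limma on TPM gave -0.83 with palbociclib and -0.94 with the combination (adjusted p of 0.0151 and 0.00452).

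KCNK1 (ENSG00000135750, chromosome 1, 233614004 to 233672512), a TWIK leak channel, held 3.54, 4.29 and 3.71 CPM in control libraries 1 to 3, 4.88, 5.09 and 4.64 with BLU9931, 1.51, 2.52 and 2.67 with palbociclib and 2.36, 1.88 and 1.6 with the combination. BLU9931 libraries were the highest, and palbociclib and combination libraries lay below all controls. KCNK1 had a log2 change of -0.79 ± 0.22 with palbociclib (adjusted p = 0.0276), -0.99 ± 0.23 with the combination (adjusted p = 0.00604) and -1.33 ± 0.23 for the combination against BLU9931 (adjusted p = 0.00118). Its palbociclib call ended without control 2 or 3 or palbociclib 1 (edgeR adjusted p 0.0522 to 0.0806) and with limma on TPM (adjusted p 0.0532). KCNK5 (ENSG00000164626, chromosome 6, 39188973 to 39229450), the acid-sensitive TASK-2 channel, held 0.819, 1.97 and 1.9 CPM in control libraries 1 to 3, 1.06, 1.46 and 1.51 with BLU9931, 0.805, 0.511 and 0.606 with palbociclib and 0.272, 0.64 and 0.262 with the combination. Palbociclib and combination libraries lay below all control and BLU9931 libraries, and control 1 lay close above them. KCNK5 had a log2 change of -1.28 ± 0.40 with palbociclib (adjusted p = 0.0422), -1.98 ± 0.42 with the combination (adjusted p = 0.00407) and -1.76 ± 0.43 for the combination against BLU9931 (adjusted p = 0.00995). Its palbociclib call ended without control 2 or 3, BLU9931 1, 2 or 3, palbociclib 1, 2 or 3 or combination 1 (edgeR adjusted p 0.0501 to 0.132) and with scaling by library totals, no filter on low counts, limma on TPM and limma on FPKM (adjusted p 0.0556 to 0.0762).

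**Figure D3:**
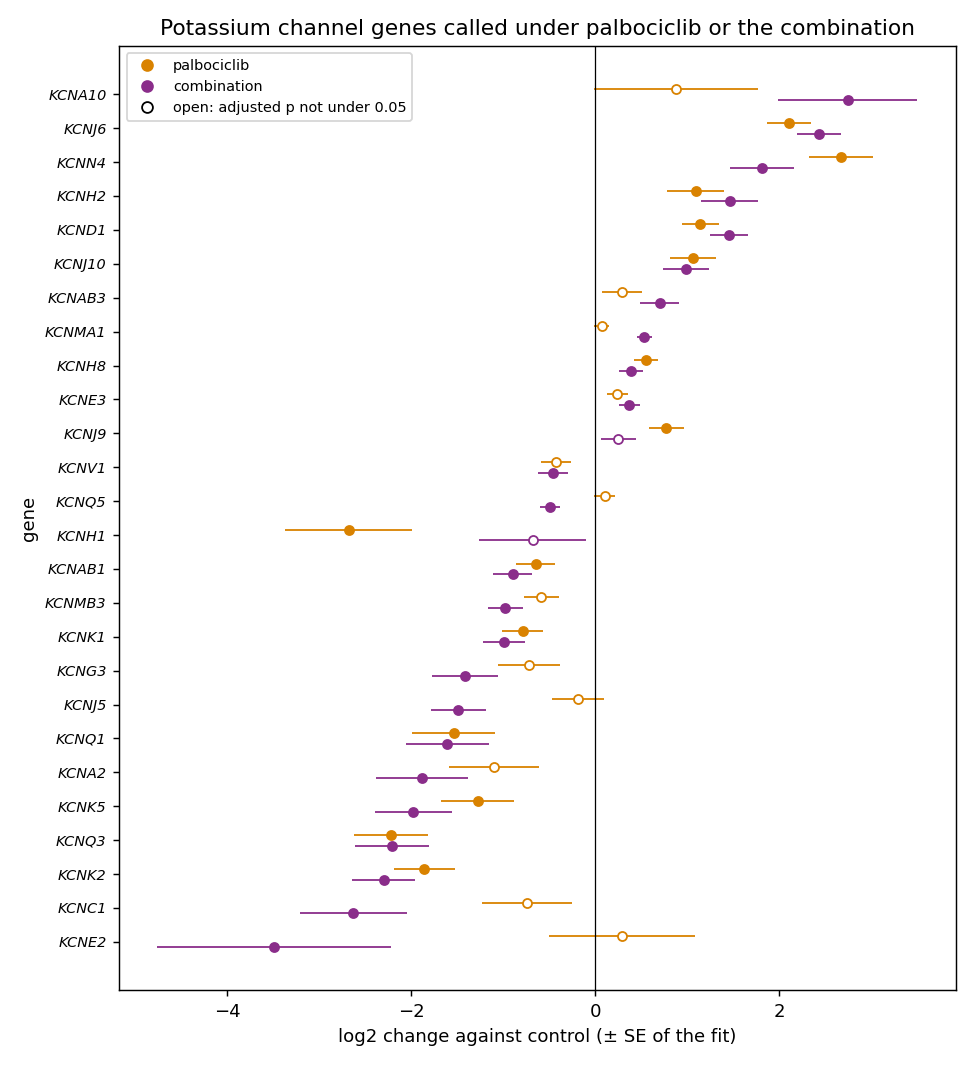
Log2 changes against control, ± standard error derived from the edgeR F-test, for 26 of the genes called with palbociclib or the combination, with filled points for adjusted p under 0.05. KCNJ6 and KCNN4 lie furthest right among genes called in both, KCNQ3 and KCNK2 lie near or beyond -1.86, and KCNJ16 is not drawn because its control libraries were at 0.

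Of the calcium-activated channels, KCNN4 and KCNMA1 rose. KCNN4 (ENSG00000104783, chromosome 19, 43766533 to 43781257), the intermediate-conductance channel of epithelia and blood cells, held 0.372, 0.346 and 0.51 CPM in control libraries 1 to 3, 0.679, 0.441 and 0.464 with BLU9931, 2.51, 3.89 and 1.54 with palbociclib and 1.36, 1.49 and 1.51 with the combination. Palbociclib libraries were the highest, combination libraries were next, and neither group overlapped control or BLU9931. KCNN4 had a log2 change of 2.67 ± 0.35 with palbociclib (adjusted p = 0.000339), 1.81 ± 0.35 with the combination (adjusted p = 0.00231), -0.86 ± 0.31 for the combination against palbociclib (adjusted p = 0.191) and 1.46 ± 0.35 for the combination against BLU9931 (adjusted p = 0.00882). KCNMA1 (ENSG00000156113, chromosome 10, 76869601 to 77638369) held 95.8, 100 and 97.4 CPM in control libraries 1 to 3, 117, 115 and 119 with BLU9931, 96.5, 105 and 106 with palbociclib and 138, 143 and 143 with the combination. Combination libraries were the highest 3 of the 12, BLU9931 libraries were next, and palbociclib overlapped control. KCNMA1 had a log2 change of 0.26 ± 0.08 with BLU9931 (adjusted p = 0.201), 0.07 ± 0.08 with palbociclib (adjusted p = 0.61), 0.53 ± 0.08 with the combination (adjusted p = 0.000506), 0.46 ± 0.08 for the combination against palbociclib (adjusted p = 0.00794) and 0.27 ± 0.08 for the combination against BLU9931 (adjusted p = 0.0292). The call against BLU9931 ended without control 2 or 3, BLU9931 1, 2 or 3, palbociclib 2 or combination 1, 2 or 3 (edgeR adjusted p 0.0518 to 0.124) and with no filter on low counts, limma on TPM, limma on FPKM and the GC adjustment (adjusted p 0.0558 to 0.899). Against palbociclib, the call ended with limma on TPM and limma on FPKM (adjusted p 0.165 to 0.178). KCNN2, a small-conductance channel, stayed between 4.32 and 6.46 CPM, and the sodium-activated KCNT1 and KCNT2 passed in no comparison.

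Among auxiliary subunits, KCNAB3 and KCNE3 rose with the combination, and KCNAB1, KCNMB3 and KCNE2 fell. KCNAB3, a cytoplasmic beta subunit of Kv1 channels, held 3.31, 4.5 and 4.73 CPM in control libraries 1 to 3, 2.55, 1.77 and 3.09 with BLU9931, 5.94, 5.07 and 4.32 with palbociclib and 6.75, 7.11 and 6.54 with the combination. Combination libraries were the highest 3 and BLU9931 libraries the lowest 3. KCNAB3 had a log2 change of -0.76 ± 0.22 with BLU9931 (adjusted p = 0.178), 0.70 ± 0.21 with the combination (adjusted p = 0.0272) and 1.46 ± 0.22 for the combination against BLU9931 (adjusted p = 0.000556). Its call against control ended without control 1 or 2 or combination 1, 2 or 3 (edgeR adjusted p 0.0576 to 0.105) and with no filter on low counts, limma on TPM, limma on FPKM and both control 1 and palbociclib 3 left out (adjusted p 0.0553 to 0.0973). KCNAB1, another Kv1 beta subunit, held 5.1, 4.01 and 3.37 CPM in control libraries 1 to 3, 3.1, 2.48 and 2.63 with BLU9931, 2.48, 2.24 and 3.19 with palbociclib and 2.31, 2.49 and 1.87 with the combination. All 9 treated libraries lay below the 3 controls. KCNAB1 had a log2 change of -0.60 ± 0.21 with BLU9931 (adjusted p = 0.229), -0.65 ± 0.21 with palbociclib (adjusted p = 0.0471) and -0.90 ± 0.21 with the combination (adjusted p = 0.00718). Its palbociclib call ended without control 1 or 2, BLU9931 1, 2 or 3, palbociclib 1 or 2 or combination 1 or 2 (edgeR adjusted p 0.0505 to 0.154) and with scaling by library totals, no filter on low counts, limma on TPM and limma on FPKM (adjusted p 0.0607 to 0.112). The abundant beta subunit KCNAB2 held 15.6, 21.7 and 21.4 CPM in control libraries 1 to 3, 21.8, 37.3 and 24.2 with BLU9931, 36.6, 35.1 and 20.4 with palbociclib and 28.6, 30.3 and 34.9 with the combination. All combination libraries lay above control, but KCNAB2, with log2 changes of 0.65 ± 0.25 with palbociclib (adjusted p = 0.0936) and 0.68 ± 0.25 with the combination (adjusted p = 0.0614), was not called.

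KCNE3 (ENSG00000175538, chromosome 11, 74454841 to 74467729) held 144, 114 and 117 CPM in control libraries 1 to 3, 133, 130 and 130 with BLU9931, 136, 140 and 168 with palbociclib and 167, 165 and 154 with the combination. Combination libraries lay above all controls, and palbociclib overlapped them. KCNE3 had a log2 change of 0.24 ± 0.11 with palbociclib (adjusted p = 0.166) and 0.37 ± 0.11 with the combination (adjusted p = 0.0275). The combination call ended without control 2 or 3, BLU9931 1 or combination 1, 2 or 3 (edgeR adjusted p 0.0519 to 0.0875) and with no filter on low counts (adjusted p 0.0529). KCNE2, a subunit for KCNQ1 and KCNH2 channels, held 6, 8 and 16 counts in control libraries 1 to 3, 0, 8 and 18 with BLU9931, 15, 8 and 9 with palbociclib and 0, 0 and 2 with the combination. The combination held 2 counts over 3 libraries against 30 in control, 13.3-fold lower (counting interval 3.37 to 115). For KCNE2 the edgeR adjusted p was 0.0436. The call ended without control 1, 2 or 3, BLU9931 2, palbociclib 1 or 2 or combination 1, 2 or 3 (edgeR adjusted p 0.0533 to 0.132) and with limma on TPM and limma on FPKM (adjusted p 0.085 to 0.116). KCNE2 shares 34.2% of its exon bases with an opposite-strand gene, AP000320.1.

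KCNMB3, a beta subunit of the BK channel, held 10.7, 11.2 and 8.35 CPM in control libraries 1 to 3, 6.96, 6.79 and 8.54 with BLU9931, 6.84, 5.19 and 8.08 with palbociclib and 5.26, 5.65 and 4.45 with the combination. Combination libraries were below all control and BLU9931 libraries. KCNMB3 had a log2 change of -0.59 ± 0.19 with palbociclib (adjusted p = 0.0505) and -0.98 ± 0.19 with the combination (adjusted p = 0.0027). It shares 37.9% of its exon bases with PIK3CA on the opposite strand, which had a mean of 2070 counts against 203, so reads of the 2 genes cannot be told apart where strand was not used. KCNMB4, the neuronal BK beta subunit, held 4.39, 2.11 and 2.49 CPM in control libraries 1 to 3, 3.82, 4.01 and 4.37 with BLU9931, 4.96, 2.83 and 4.61 with palbociclib and 2.08, 1.81 and 2.52 with the combination. Combination libraries were below all BLU9931 and palbociclib libraries and overlapped control. KCNMB4 had a log2 change of -0.48 ± 0.29 with the combination (adjusted p = 0.239) and -0.92 ± 0.29 for the combination against BLU9931 (adjusted p = 0.0355). The call against BLU9931 ended without BLU9931 1, 2 or 3 or combination 1 or 2 (edgeR adjusted p 0.0636 to 0.109) and with limma on TPM and limma on FPKM (adjusted p 0.0822 to 0.0852).

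**Figure D4:**
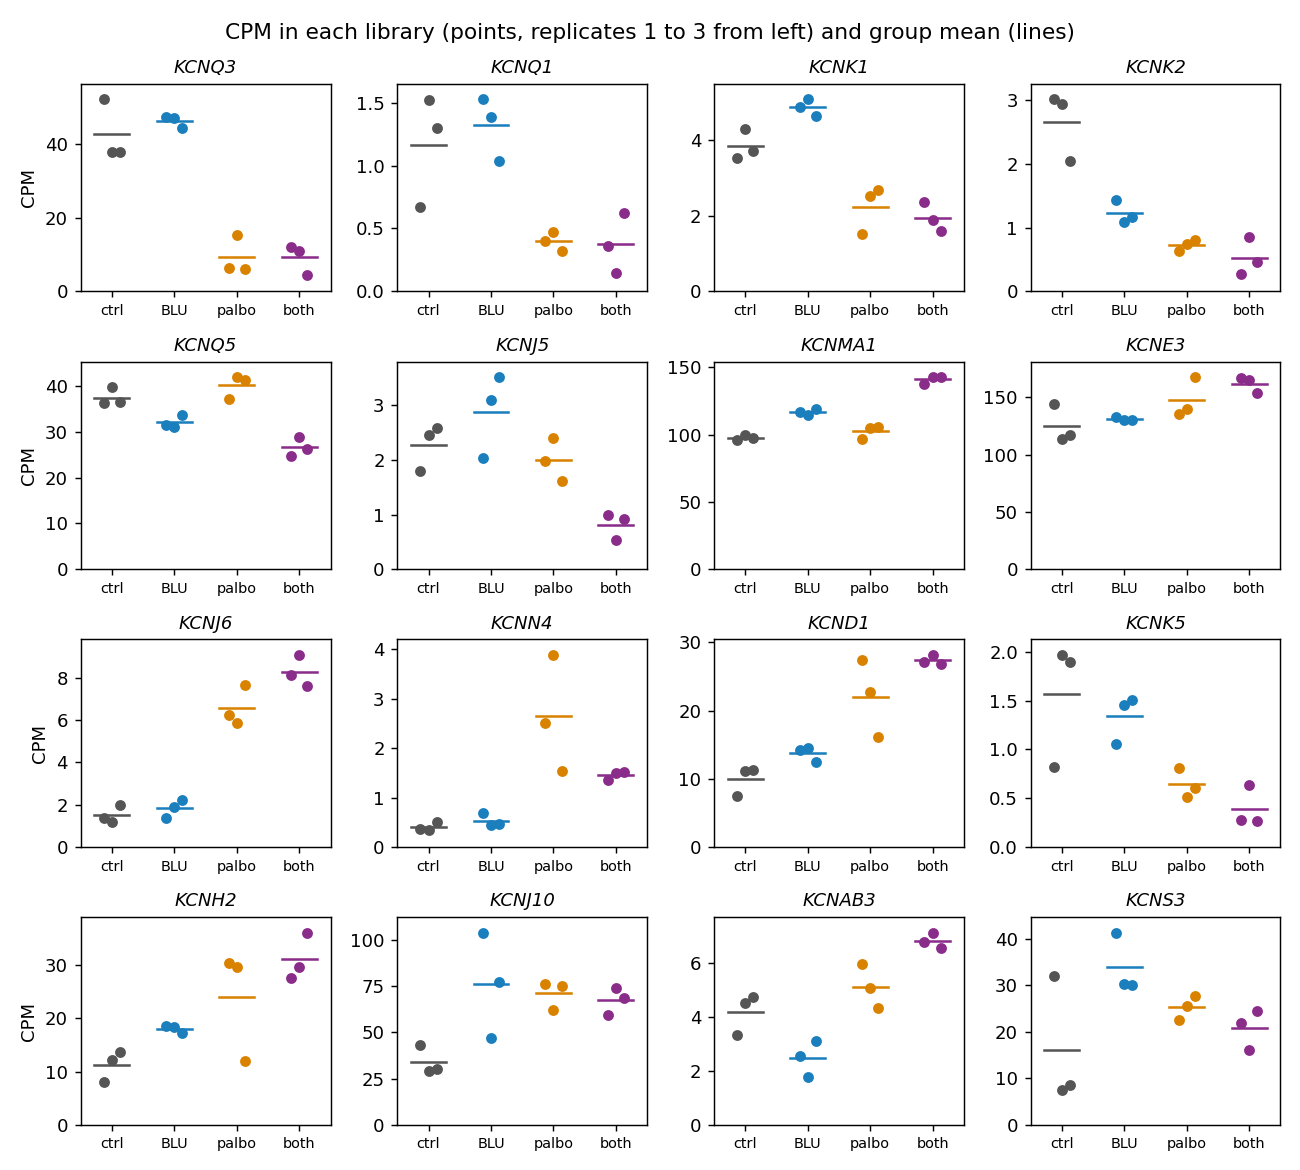
CPM of 16 potassium channel genes in each library (points, replicates 1 to 3 from left) with group means (lines); each vertical axis starts at 0. KCNQ1, KCNQ3, KCNK1 and KCNK2 are low in the palbociclib and combination columns, KCNJ6 is high there, KCNMA1 and KCNQ5 stand apart in the combination column, and control 1 stands apart in KCNS3.

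Next, the combination was set against each drug alone. Against palbociclib, 3 of 57 were called (3.82% of all genes): KCNMA1 rose (0.917% of all genes rose), and KCNQ5 and KCNJ5 fell (2.91% of all genes fell). This count was 6 with DESeq2 (6.44% of all genes), 6 without both libraries that stood apart (9.69%) and 7 with the GC adjustment (11.1%). It was 1 with limma on TPM (3.18%) or FPKM (3.19%) and 1 without combination 1 (2.06%). Against BLU9931, 21 were called (27.0% of all genes), of which 7 rose (13.3% of all genes rose) and 14 fell (13.7% of all genes fell). The 7 rises were KCNA10, KCNAB3, KCND1, KCNJ6, KCNJ16, KCNMA1 and KCNN4. The 14 falls included KCNQ1 and KCNQ3, 3 2-pore genes (KCNK1, KCNK2 and KCNK5), 3 silent subunits (KCNG1, KCNG3 and KCNV1), KCNA2, KCNC1, KCNJ4, KCNJ5 and KCNMB4. These comparisons share the combination libraries with each other and with the comparison against control.

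The interaction term addresses whether the drugs together differ from the sum of their separate log2 changes. It was past the threshold for 0 of 57 genes in edgeR (1.59% of all genes). An unadjusted p under 0.05 was reached by 12 (14.2% of all genes), and DESeq2 called 4, KCNJ5, KCNMB4, KCNAB3 and KCNJ10 (4.14% of all genes). EdgeR called 5 with both libraries that stood apart left out (10% of all genes), 3 with the GC adjustment (8.32%) and 2 without control 1 (1.59%), one of them KCNS3 (log2 value of -2.37, adjusted p = 0.00199). Adjusted p was lowest for KCNJ5 and KCNAB3 among these 4 in edgeR, at log2 values of -1.64 ± 0.41 for the interaction (adjusted p = 0.0795) and 1.18 ± 0.31 for the interaction (adjusted p = 0.0959).

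Genes that serve potassium channels or potassium balance under other names were counted in the same way. Of 14 partners of potassium channels, 8 were tested, 0 were called with palbociclib and 2 with the combination (20.6% and 31.7% of all genes). ABCC8, the sulfonylurea receptor that joins KCNJ11, had a log2 change of 0.73 ± 0.16 with the combination (adjusted p = 0.00478). HCN3, a hyperpolarization-activated channel, had a log2 change of -0.85 ± 0.25 with the combination (adjusted p = 0.0219). The median log2 change of the 8 was 0.27 with palbociclib and 0.23 with the combination, against 0.01 and 0.03 over all tested genes.

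Of 25 potassium pumps and cotransporters, 13 were tested. With palbociclib 3 rose and 3 fell (20.6% of all genes were called), and with the combination 3 rose and 4 fell (31.7% of all genes). Their median log2 changes were 0.16 and -0.09, against 0.01 and 0.03 over all tested genes. FXYD3, a small regulator of the sodium-potassium pump, had a log2 change of 1.92 ± 0.33 with palbociclib (adjusted p = 0.00183) and 3.75 ± 0.32 with the combination (adjusted p = 6.74e-06). FXYD6, a regulator of the same family, had a log2 change of -1.05 ± 0.18 with palbociclib (adjusted p = 0.00169) and -1.90 ± 0.18 with the combination (adjusted p = 1.62e-05). With the combination, both lists held calls in each direction.

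Markers of other cell types were read beside these results because many of these channels are best known from nerve, muscle or blood cells. Of 7 neuroendocrine or neuronal markers, 6 were tested, and their summed level was 29.4 to 43.8 TPM in control, 43.3 to 106 with BLU9931, 42.2 to 63.7 with palbociclib and 58.9 to 83 with the combination. NEUROD1, a neuroendocrine transcription factor, had at most 2 counts. Of 5 leukocyte markers 2 were tested, with sums of 1.15 to 1.75 TPM in control, 1.41 to 1.99 with BLU9931, 2.64 to 2.96 with palbociclib and 3.63 to 4.2 with the combination. LYZ had a log2 change of 2.54 ± 0.32 with palbociclib (adjusted p = 0.00026) and 3.29 ± 0.31 with the combination (adjusted p = 1.43e-05), and CD14 one of -0.41 ± 0.43 with palbociclib (adjusted p = 0.547) and -0.95 ± 0.44 with the combination (adjusted p = 0.123). The defining markers PTPRC and CD3E had at most 2 and 1 counts. Of 5 muscle markers 1 was tested, RYR1, which had a log2 change of -1.23 ± 0.21 with palbociclib (adjusted p = 0.00166) and -1.59 ± 0.21 with the combination (adjusted p = 0.000172). The muscle sum was 2.19 to 4.57 TPM in control, 2.16 to 4.41 with BLU9931, 0.345 to 2.98 with palbociclib and 0.739 to 1.36 with the combination, and MYH7 was at 0 in all libraries. Of 6 fibroblast markers 2 were tested, and 0 were called against control, with sums of 1.97 to 4.69 TPM in control, 5.3 to 5.52 with BLU9931, 2.35 to 3.65 with palbociclib and 1.45 to 3.13 with the combination. The part of the neuroendocrine markers in the channel results was not tested.

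The 25 tested genes called in no comparison were KCNS3, KCNC4, KCND2, KCNAB2 and KCNJ11, with values above, and others of lower level. Among these were the inward rectifiers KCNJ1, KCNJ2, KCNJ12 and KCNJ14, the 2-pore genes KCNK6 and KCNK12, the pores KCNB2, KCNH3, KCNN2, KCNT1 and KCNT2, the silent subunit KCNV2, the regulator KCNRG and the auxiliary genes KCNIP2, KCNIP3, KCNIP4, KCNE1, KCNE4 and KCNMB2. KCNE4, an inhibitory Kv subunit, reached the highest value of them, 7.92 CPM, and had a log2 change of 0.14 ± 0.17 with palbociclib (adjusted p = 0.626) and -0.37 ± 0.17 with the combination (adjusted p = 0.127). KCNMB2, a BK beta subunit, had a log2 change of 0.91 ± 0.37 with palbociclib (adjusted p = 0.105) and 0.83 ± 0.37 with the combination (adjusted p = 0.108). KCNRG shares 66.8% of its exon bases with TRIM13 on the same strand, which had a mean of 1379 counts against 21.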

How the data were processed

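Per the labels' protocols, RNA of H520 cells went into mRNA libraries for Illumina sequencing. Per the file headers, the deposited values are counts, TPM and FPKM. Tools listed in the submitters' processing notes, with no step tied to each, are StringTie 1.3.3b, HISAT2 2.0, Trimmomatic 0.36 and bedtools 2.26.0, beside a mouse build. The table holds human Ensembl IDs, 57836 of 58174 of them in GENCODE 29 and 56044 with the same start and end, so positions are on GRCh38. Annotation release, counting mode and strand are not given in the sources used here.

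Deposited counts were tested with edgeR 4.0.16 in R 4.3.3 (filterByExpr, TMM, robust quasi-likelihood F-test, two-sided) in 1 fit of the 4 groups with 8 residual degrees of freedom, with Benjamini-Hochberg adjustment over 20612 genes. Changes on TPM or FPKM used limma 3.58.1 on log2(value + 1). Other alternatives were library totals, DESeq2 1.42.0, no filter, the replicate number as a block, a GC adjustment (loess span of 0.3; GC content known for 99.6% of tested genes), and libraries left out. Counts of replicates differed beyond sampling noise in every pair (chi-square per degree of freedom of 17.6 to 86.1). The counting interval is 95% and exact, and covers counting error only. Values in every library were printed for members called in any comparison and for the 10 with the highest mean TPM, except for some genes that are not reported here. KCNJ11 was added after its values were seen. Sequences and their build are RefSeq's. Members and lists were chosen with earlier results of these data known.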

Additional observations from a re-analysis of the deposited data

How the results depend on the processing

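Counts of members called kept within 1.5 times of 17 (palbociclib), 27 (combination against control) and 21 (combination against BLU9931) under all alternatives except that 11 were called with palbociclib without palbociclib 1 or palbociclib 2. With any 1 library left out the counts were 11 to 19, 20 to 29 and 15 to 25. For BLU9931 alone, 0 calls became 5 with DESeq2, 2 with control 1 and palbociclib 3 both left out, 3 with the GC adjustment and 0 to 1 with 1 library left out (1 without control 1). For the combination against palbociclib, 3 became 6 with DESeq2, 1 with limma on TPM and on FPKM, 6 with both libraries left out, 7 with the GC adjustment and 1 to 4 with 1 left out (1 without combination 1). For the interaction, 0 became 4, 5 and 3 with DESeq2, both left out and the GC adjustment, and 0 to 2 with 1 left out (2 without control 1, 1 without BLU9931 2 or palbociclib 3). The cause was not tested.

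The replicate numbers did not pair the libraries, since deviations of same-numbered libraries correlated at -0.364 to 0.168. With the replicate block, calls numbered 0 for BLU9931, 12 for palbociclib and 23 for the combination, each against control, 2 and 17 for the combination against palbociclib and BLU9931, and 0 for the interaction. Calls that ended with the block enter these counts only and are not listed with the genes above.

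Of calls against control, 8 of 17 with palbociclib and 18 of 27 with the combination passed under every alternative, as did 0 of 3 against palbociclib and 15 of 21 against BLU9931. Among them were the combination calls of KCNJ16 against control and BLU9931, and of KCNA10 against BLU9931. The filter had selected these genes on the combination libraries, so their passing is no support. For KCNV1 in the combination against BLU9931, the change of -0.52 reversed to 0.10 with limma on TPM and 0.07 on FPKM. CPM to TPM ratios varied over 2-fold between libraries in 12 of 52 members, so their fold sizes depend on the unit. Genes under about 1 CPM rest on few counts.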
